A study of Homo sapiens with 4 samples.

Results

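The genes described here are 32 members of the pathway that makes, takes up and senses cholesterol, out of 18882 genes listed in 4 RNA-seq libraries of the human breast cancer cell line BT-474. Members were picked by gene symbol and matched by NCBI Gene ID, and all 32 were present in the files and abundant enough to test, with between 43 and 5802 reads in a library. They comprise 8 genes from acetoacetyl-CoA to farnesyl and geranylgeranyl diphosphate, 11 genes from squalene to cholesterol, 5 genes of the SREBP control system, 6 genes of uptake, transport and storage, and the 2 LXR genes. The list does not hold every step of the pathway.

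BT-474 is a luminal B-like line with amplified ERBB2. The study asked how stable overexpression of Neuropilin-1 (NRP-1), a transmembrane co-receptor, changed its transcriptome. The 2 control libraries, replicates 1 and 2, came from wild-type BT-474 cells, and the 2 NRP-1 libraries, replicates 2 and 3, from BT-474 cells carrying an NRP-1 overexpression vector. A serum-containing medium is described for BT-474 cells, and no further treatment of the sequenced cells is described. The paper does not say whether the NRP-1 cells were still kept in the selection drug Geneticin when RNA was taken. The NRP-1 cells had also been transfected, selected with Geneticin and isolated as clones, so these steps cannot be told apart from NRP-1 itself, and no empty-vector library was analysed here. The labels do not say that libraries of a group came from separate cultures, and p-values then measure only the spread between these samples, which may be technical.

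Library totals ran from 8243595 to 8448926 expected counts. NRP1 had 7 and 8 reads in the controls and 103 and 62 with the vector, its log2 fold change being 3.38 with an edgeR adjusted p of 0.044, in the direction of the labels. Luminal markers other than GATA3 were abundant, with 46249 to 59100 reads of ERBB2. The luminal list summed to 11073 and 11345 CPM in the controls and 13538 and 11388 CPM in the NRP-1 libraries. Of its 7 genes, 5 lay above the controls in both NRP-1 libraries, EPCAM lay below and ERBB2 overlapped, where 27.9% of all tested genes lay above and 28.3% below. GATA3 had 184 and 186 reads in the controls and 688 and 289 in the NRP-1 libraries (edgeR adjusted p = 0.126). EPCAM had 2291 and 2420 reads against 2010 and 1953 (edgeR adjusted p = 0.188). The fibroblast list summed to 214 and 212 against 178 and 160 CPM, nearly all of it COL1A1 (1357 to 1740 reads), with DCN at 0. The other lists were low in every library. Basal markers summed to 1 and 5 against 5 and 9 CPM, with KRT14 at 0 and TP63 at 12 and 43 against 40 and 74 reads. Endothelial markers summed to 6 and 9 against 13 and 12 CPM, with VWF at 9 and 20 against 47 and 49 reads (edgeR adjusted p = 0.0998). Leukocyte markers summed to 1 to 2 CPM, with CD3E and CD14 at 0, and adipocyte markers to 10 and 13 against 12 and 7 CPM. The part of these markers in the results below was not tested. In bulk RNA, a change in the share of cells and a change in RNA per cell cannot be told apart.

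Cells build cholesterol from acetyl-CoA through mevalonate, isoprenoid diphosphates, squalene and lanosterol. When the endoplasmic reticulum is rich in sterol, INSIG proteins hold the SCAP and SREBP complex there. When sterol falls, SREBP moves to the Golgi, is cleaved, and enters the nucleus, where it acts with partner factors such as NF-Y, which binds CCAAT boxes. LXR receptors respond to oxysterols and drive the opposite arm, which removes cholesterol from the cell.

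Promoter sequences were available for 28 of the 32 members, as 40 windows running from 250 bases before to 50 bases after an annotated start in the RefSeq table for GRCh38.p14. The members without a window were ACAT2, FDFT1, SQLE and SCARB1. The stretches below are the longest part of a member's upstream 250 bases that lies in no GENCODE v29 exon. They were chosen after the expression values were seen, to set 4 genes that rose beside INSIG2, which did not pass the test. Capitals mark CCAAT on either strand (ATTGG on the strand shown) and TCACNCCA, the core of a sterol regulatory element, on either strand.
MSMO1, chr4:165327419-165327622, plus strand: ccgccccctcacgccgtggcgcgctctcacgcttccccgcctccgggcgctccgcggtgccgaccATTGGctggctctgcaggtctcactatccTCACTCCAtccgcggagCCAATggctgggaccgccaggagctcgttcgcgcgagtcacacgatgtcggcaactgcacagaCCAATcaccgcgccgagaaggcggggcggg
NSDHL, chrX:152830813-152830966, plus strand: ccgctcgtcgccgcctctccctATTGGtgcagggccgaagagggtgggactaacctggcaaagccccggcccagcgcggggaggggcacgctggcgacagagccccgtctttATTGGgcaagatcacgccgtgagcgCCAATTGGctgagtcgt
LSS, chr21:46228825-46229024, minus strand: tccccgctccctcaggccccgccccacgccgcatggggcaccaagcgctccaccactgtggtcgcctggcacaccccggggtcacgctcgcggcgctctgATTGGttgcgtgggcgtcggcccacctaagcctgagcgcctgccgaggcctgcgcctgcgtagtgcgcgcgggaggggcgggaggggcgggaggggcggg
INSIG1, chr7:155297628-155297775, plus strand: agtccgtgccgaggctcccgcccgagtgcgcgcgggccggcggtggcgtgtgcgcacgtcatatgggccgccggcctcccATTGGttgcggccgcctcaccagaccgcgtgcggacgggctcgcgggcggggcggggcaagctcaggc
INSIG2, chr2:118088221-118088451, plus strand: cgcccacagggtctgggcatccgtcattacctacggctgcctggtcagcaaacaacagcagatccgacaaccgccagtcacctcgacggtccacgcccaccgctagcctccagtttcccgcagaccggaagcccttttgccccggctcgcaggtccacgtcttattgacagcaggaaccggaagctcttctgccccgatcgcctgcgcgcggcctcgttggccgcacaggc

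These stretches hold 3 CCAAT matches in MSMO1, 4 in NSDHL, 1 in LSS, 1 in INSIG1 and 0 in INSIG2. TCACNCCA was found in the windows of MVK, MSMO1 and SREBF2 only, and in 4.7% of the 11225 tested genes that have a window. The MVK and SREBF2 sites, which carry the stricter letters TCACCCCA, are shown with the bases around them. Unlike the stretches above, both sites lie within annotated GENCODE v29 exons, as do all 250 bases before these 2 starts.
MVK, chr12:109573588-109573617, plus strand: gttcgcagttcTCACCCCAgggcgggacac
SREBF2, chr22:41832961-41832990, plus strand: atgacgcgccaTCACCCCAcgcaccgcttc

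Over whole windows, CCAAT occurred in all 10 of the members that rose and have a window, and in 11 of the 18 other members with a window. It occurred in 42.9% of tested genes and in 34.6% of all 35116 windows. CCAAT was singled out after the calls were seen, and the difference between these members was not tested. GGGCGG, the GC box, occurred in 9 of the 10 and in all 18 of the others, against 74.9% of tested genes. CACGTG, an E-box, occurred in 2 of the 10 and 2 of the 18, against 12.4% of tested genes. In all, 12 letter patterns were searched on both strands, with expression results known, and 5 are described. The other 7, all shorter, longer or looser forms of the sterol element core, occurred in 1 to 6 members. TCACCCCA is a special case of TCACNCCA, so those matches overlap. A match is a description of letters and not evidence of binding, and the missing sterol element match in most windows says only that these letters are not in this stretch.

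The question for expression was which steps of the pathway differed between BT-474 NRP-1 and control cells. Levels are given as CPM, reads scaled to the library total with TMM factors, which compares libraries for 1 gene, and differences as the log2 fold change of NRP-1 over control with its standard error (SE), n = 2 libraries per group. Of the 32 members, 12 rose (adjusted p under 0.05, edgeR quasi-likelihood test, Benjamini-Hochberg over 14298 genes) and 0 fell. The background was 0.413% of tested genes higher and 0.678% lower, 1.09% in all. At an unadjusted p under 0.05, 19 members were higher and 1 lower, where 10.8% of tested genes were higher and 12.1% lower, 22.9% in all. The 12 members were 37.5% of the list and 20.3% of the 59 genes that rose in all. With DESeq2, 16 members rose and 1 fell, against 2.86% and 3.94% of tested genes, 6.8% in all. The members added by DESeq2 were FDFT1, EBP, SREBF2 and STARD4 upwards and NPC1 downwards. Without any test, 21 members had both NRP-1 libraries above both controls, 5 had both below and 6 overlapped, where 27.9% of tested genes lay above and 28.3% below. The median log2 fold change was 0.69 over the members and 0.02 over all tested genes.

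**Figure D1:**
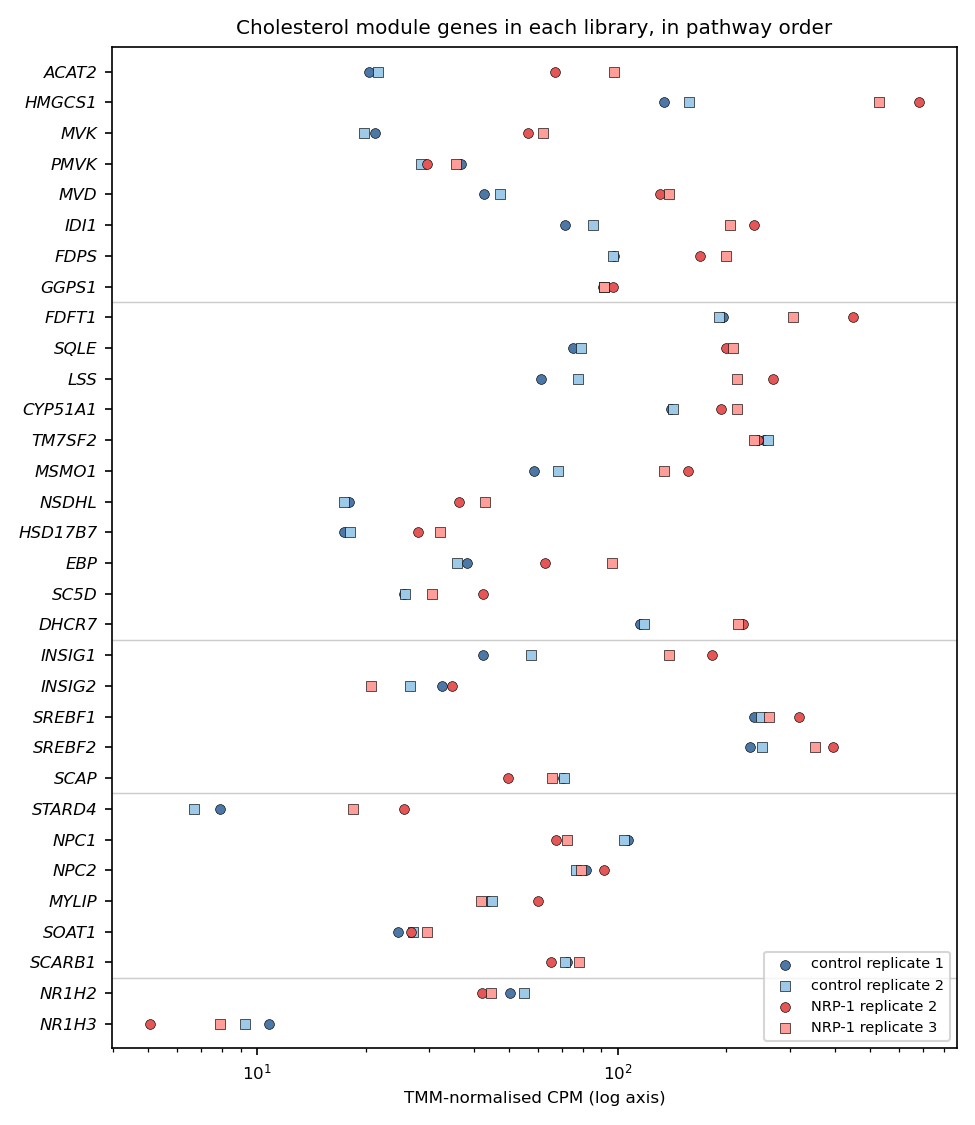
TMM-normalised CPM (log axis) of the 32 genes in each of the 4 libraries, from ACAT2 at the top to the LXR genes at the bottom, with lines between the classes. Both NRP-1 libraries sit to the right of both controls for 17 of the 19 synthesis enzymes, with TM7SF2 and PMVK the exceptions. The share over all tested genes was 27.9%.

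ACAT2 and HMGCS1, the first enzymes of the mevalonate pathway, both rose. ACAT2 (NCBI Gene 39), the cytosolic thiolase that joins 2 acetyl-CoA, was at 20.4 and 21.7 CPM in the controls and 67.1 and 97.8 CPM in the NRP-1 libraries. HMGCS1 (NCBI Gene 3157), which adds the next acetyl unit to make HMG-CoA, was at 134 and 158 CPM against 682 and 531 CPM. The groups did not overlap for either gene, and the lowest NRP-1 library stood well above the highest control. ACAT2 changed by 1.97 (SE 0.22, adjusted p = 0.0376 by edgeR) and HMGCS1 by 2.05 (SE 0.18, adjusted p = 0.0327 by edgeR), a 4.15-fold change. These were the largest estimates among the members over all 4 libraries, but the order changed with the library: with NRP-1 replicate 2 alone LSS (1.96), INSIG1 (1.88) and STARD4 (1.81) exceeded ACAT2 (1.67), and with replicate 3 alone ACAT2 (2.21) exceeded HMGCS1 (1.85).

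MVK (NCBI Gene 4598), mevalonate kinase, whose sterol element site is printed above, was at 21.2 and 19.8 CPM in the controls and 56.3 and 62.0 CPM in the NRP-1 libraries. MVD (NCBI Gene 4597), which decarboxylates mevalonate diphosphate, was at 42.6 and 47.0 CPM against 131 and 139 CPM. Their log2 fold changes were 1.53 (SE 0.15, adjusted p = 0.0358 by edgeR) and 1.59 (SE 0.13, adjusted p = 0.031 by edgeR). PMVK, phosphomevalonate kinase, acts between these enzymes and did not move with them. It was at 36.8 and 28.4 CPM in the controls and 29.5 and 35.5 CPM in the NRP-1 libraries, with overlapping groups, a 0.997-fold level and an adjusted p of 0.993 by edgeR.

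IDI1 (NCBI Gene 3422), the isopentenyl diphosphate isomerase, was at 71.3 and 85.2 CPM in the controls and 239 and 205 CPM in the NRP-1 libraries. It rose by 1.50 (SE 0.15, adjusted p = 0.0358 by edgeR). Reads of its paralog IDI2 may be shared with it, and the sum of both genes gave 1.44. FDPS (NCBI Gene 2224), which makes farnesyl diphosphate, the branch point to sterols and prenylated proteins, was at 97.9 and 96.9 CPM against 169 and 200 CPM, a change of 0.92 (SE 0.13, adjusted p = 0.0477 by edgeR). GGPS1 leads from farnesyl diphosphate to geranylgeranyl diphosphate, away from sterols, and stood at 90.9 to 96.9 CPM in all 4 libraries (log2 fold change 0.05, SE 0.12, adjusted p = 0.834 by edgeR). In the mevalonate class as a whole, 6 of 8 genes rose, 7 lay above the controls and the median log2 fold change was 1.52. The shares of all tested genes were 0.413% that rose and 27.9% above.

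Several of these genes overlap another gene in the RefSeq annotation of GRCh38.p14, when each gene is taken from its start to its end. Any shared base was counted as an overlap, and its length was not measured. Whether their exons overlap was not examined. No strand setting for the counting is given in the sources used here, so reads from any shared exon may not be told apart. ACAT2 overlaps TCP1, with 1185 and 1226 reads in the controls and 1327 and 1979 in the NRP-1 libraries, and SOD2. IDI1 overlaps the antisense RNA IDI2-AS1, with 50 and 52 reads against 177 and 114. FDPS overlaps RUSC1-AS1, with 121 and 121 reads against 218 and 273, and MVK overlaps MMAB, with 196 and 193 against 347 and 381. In all, 10 members overlap a counted gene, 4 of them among the 12 that rose.

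Past the branch point, 5 of the 11 squalene-to-cholesterol genes rose and 0 fell, and 10 of them lay above the controls in both NRP-1 libraries. Among all tested genes 0.413% rose and 27.9% lay above. FDFT1, squalene synthase, had 196 and 191 CPM in the controls and 448 and 305 CPM in the NRP-1 libraries. Its groups did not overlap, but the NRP-1 libraries were far apart, and the log2 fold change of 0.96 (SE 0.20) had an adjusted p of 0.0743 by edgeR. SQLE (NCBI Gene 6713), squalene epoxidase, a rate-limiting oxygen-dependent step, was at 74.9 and 79.0 CPM against 199 and 209 CPM, tight within each group, and rose by 1.41 (SE 0.12, adjusted p = 0.0327 by edgeR). LSS (NCBI Gene 4047), the cyclase that folds the epoxide into lanosterol, was at 61.1 and 77.6 CPM against 270 and 214 CPM. Its log2 fold change was 1.80 (SE 0.18, adjusted p = 0.0358 by edgeR), the largest estimate of this class.

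The enzymes that strip methyl groups from lanosterol differed among themselves. CYP51A1, the lanosterol 14-alpha-demethylase, was at 140 and 142 CPM in the controls and 193 and 214 CPM in the NRP-1 libraries, above the controls in both but with an adjusted p of 0.0821 by edgeR (log2 fold change 0.53, SE 0.12). MSMO1 (NCBI Gene 6307), the C4-methyl oxidase, was at 58.4 and 68.1 CPM against 157 and 134 CPM and rose by 1.20 (SE 0.15, adjusted p = 0.044 by edgeR). NSDHL (NCBI Gene 50814), the C4 decarboxylating dehydrogenase of the same complex, was at 18.0 and 17.4 CPM against 36.2 and 42.9 CPM and rose by 1.16 (SE 0.17, adjusted p = 0.0489 by edgeR). HSD17B7, the 3-ketosteroid reductase that completes C4 demethylation, was at 17.4 and 18.1 CPM against 28.0 and 32.1 CPM, a log2 fold change of 0.76 (SE 0.17, adjusted p = 0.0821 by edgeR). Reads can be shared with its pseudogene HSD17B7P2, and the summed pair gave 0.64.

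TM7SF2, a sterol C14 reductase, was the one synthesis enzyme whose NRP-1 libraries both lay below the controls. It was at 255 and 261 CPM in the controls and 245 and 238 CPM in the NRP-1 libraries. The log2 fold change was -0.10 (SE 0.11, adjusted p = 0.653 by edgeR). On the per-length FPKM scale TM7SF2 had the highest level of all 32 members in the controls, at 157.22 and 162.05 FPKM.

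Of the last steps, DHCR7 (NCBI Gene 1717), which reduces 7-dehydrocholesterol to cholesterol, was at 115 and 118 CPM in the controls and 222 and 216 CPM in the NRP-1 libraries. The pairs were tight and well separated, and DHCR7 rose by 0.91 (SE 0.11, adjusted p = 0.044 by edgeR). EBP, the sterol isomerase, was at 38.1 and 35.9 CPM against 63.0 and 96.1 CPM, above the controls in both libraries, with a log2 fold change of 1.10 (SE 0.22) and an adjusted p of 0.0719 by edgeR. SC5D, the C5 desaturase that acts after EBP, was at 25.5 and 25.7 CPM against 42.4 and 30.6 CPM, a change of 0.51 (SE 0.20, adjusted p = 0.204 by edgeR).

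Taking both classes, 11 of the 19 synthesis enzymes rose and 0 fell, where 0.413% and 0.678% of all tested genes did. The median log2 fold change of these enzymes was 1.10. Their CPM summed to 1516 and 1583 in the controls and 3374 and 3095 in the NRP-1 libraries, 2.09-fold more. Of the 13 other members 1 rose, and their median was 0.11.

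**Figure D2:**
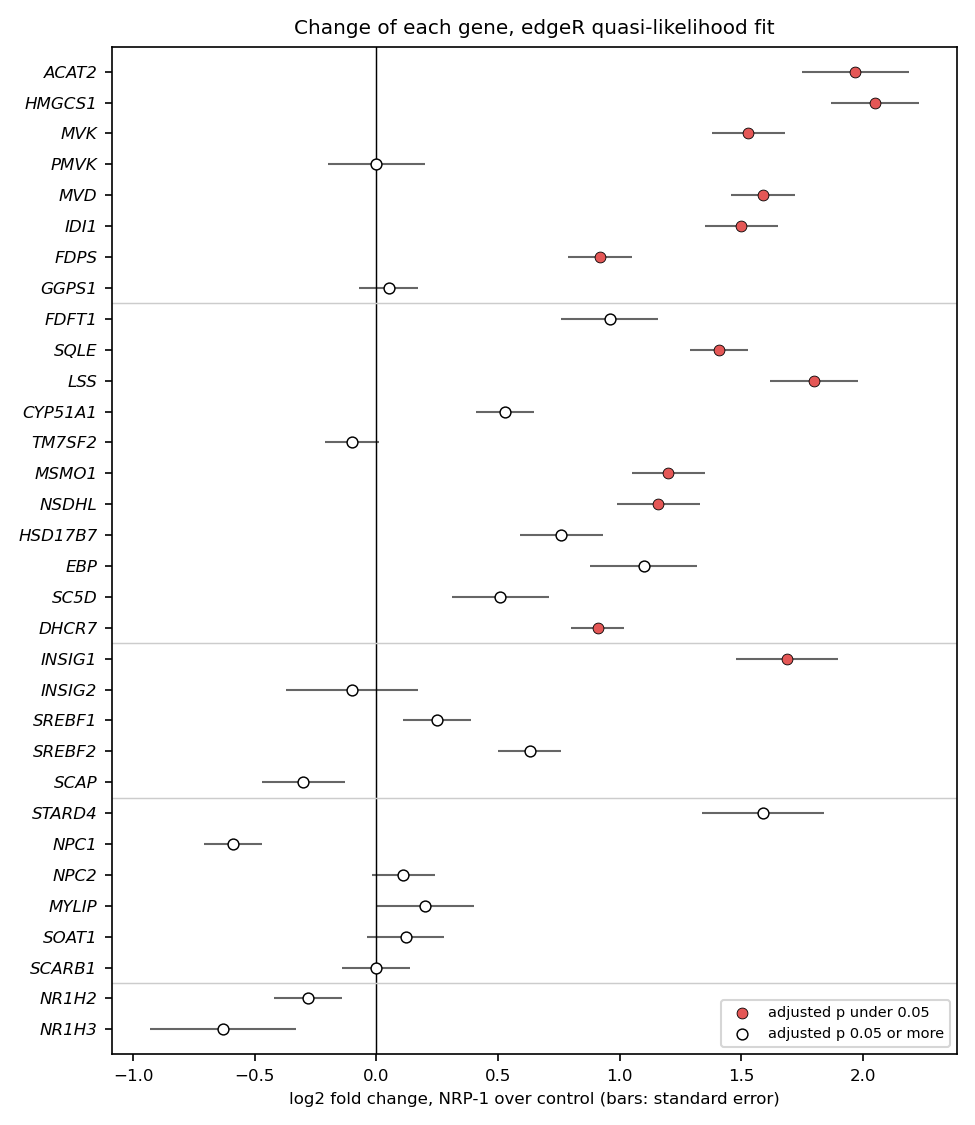
Log2 fold change of NRP-1 over control for the 32 genes in pathway order, bars showing the standard error of the edgeR fit (n = 2 libraries per group) and filled points an adjusted p under 0.05. The 12 filled points, 11 of them synthesis enzymes, run from 0.91 for DHCR7 to 2.05 for HMGCS1.

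In the control system, INSIG1 rose and the other 4 genes did not pass the test. INSIG1 (NCBI Gene 3638), which retains SCAP in the endoplasmic reticulum and is itself an SREBP target, was at 42.4 and 57.6 CPM in the controls and 183 and 139 CPM in the NRP-1 libraries. Its log2 fold change was 1.69 (SE 0.21, adjusted p = 0.044 by edgeR). Its paralog INSIG2, which has the same retention role, was at 32.5 and 26.5 CPM against 34.6 and 20.7 CPM. The INSIG2 groups overlapped, and its log2 fold change was -0.10 (SE 0.27, adjusted p = 0.867 by edgeR).

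SREBF2, the gene of the SREBP-2 factor that mainly drives cholesterol genes, was at 233 and 251 CPM in the controls and 395 and 353 CPM in the NRP-1 libraries. Both NRP-1 libraries lay above the controls, and the log2 fold change of 0.63 (SE 0.13) had an adjusted p of 0.0728 by edgeR. SREBF1, whose products lean towards fatty acid genes, was at 239 and 249 CPM against 317 and 262 CPM (log2 fold change 0.25, SE 0.14, adjusted p = 0.346 by edgeR). SCAP, the sterol-sensing escort, was at 70.6 and 70.9 CPM against 49.7 and 65.5 CPM, below the controls in both libraries, with a log2 fold change of -0.30 (SE 0.17, adjusted p = 0.344 by edgeR).

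Uptake, transport and storage held 0 genes that passed the edgeR test among 6, 2 of them with an unadjusted p under 0.05 (22.9% of all tested genes), and 4 of the 6 overlapped between groups. STARD4, a soluble carrier that moves cholesterol between membranes, was the least abundant member in the controls per length and came closest. It was at 7.88 and 6.69 CPM in the controls and 25.5 and 18.4 CPM in the NRP-1 libraries, which gave a log2 fold change of 1.59 (SE 0.25) with an adjusted p of 0.054 by edgeR. NPC1, the membrane protein that exports cholesterol from the lysosome, was at 107 and 104 CPM against 67.6 and 72.1 CPM. Both of its NRP-1 libraries lay below the controls, with a log2 fold change of -0.59 (SE 0.12, adjusted p = 0.0728 by edgeR).

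NPC2, the soluble lysosomal partner that hands cholesterol to NPC1, had a log2 fold change of 0.11 and an adjusted p of 0.677 by edgeR. MYLIP, an LXR-induced ubiquitin ligase that removes lipoprotein receptors, was at 0.20 with an adjusted p of 0.591 by edgeR. SOAT1, which esterifies cholesterol for storage, was at 0.12 with an adjusted p of 0.711 by edgeR, and SCARB1, the HDL receptor, kept a 0.998-fold level with an adjusted p of 0.994 by edgeR. In these 4 genes the groups overlapped. The 2 LXR genes both lay below the controls, as did 28.3% of all tested genes. Neither had an unadjusted p under 0.05 by edgeR. NR1H3 (LXR alpha) was at 10.8 and 9.25 CPM in the controls and 5.06 and 7.87 CPM in the NRP-1 libraries, which gave -0.63 on the log2 scale (SE 0.30, adjusted p = 0.268 by edgeR). NR1H2 (LXR beta) was at 50.1 and 54.8 CPM against 42.0 and 44.5 CPM, a change of -0.28 (SE 0.14, adjusted p = 0.286 by edgeR).

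Levels of different genes can be set side by side only per length, as FPKM. In the controls TM7SF2, FDFT1 and NPC2 led, with group means of 160, 90.3 and 86.7 FPKM, and STARD4, SC5D and SOAT1 were lowest, at 3.18, 3.59 and 3.64 FPKM. In the NRP-1 libraries FDFT1 stood first at 180 ± 48.8 FPKM (SD, n = 2) and TM7SF2 second at 153 ± 3.37 FPKM (SD, n = 2), an order that does not hold beyond the spread, since NRP-1 replicate 3 had 145.68 FPKM of FDFT1 and 150.9 FPKM of TM7SF2. HMGCS1 moved from rank 13 of 32 in the controls to rank 4, and MVD from rank 18 to rank 9. SREBF1 went from rank 6 to rank 14, with 46.8 and 49.18 FPKM in the controls and 63.86 and 52.63 FPKM in the NRP-1 libraries.

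Agreement within a group was closer for the controls than for the NRP-1 libraries. Among the members the median absolute log2 difference was 0.24 between the NRP-1 libraries and 0.08 between the controls, and over all tested genes these values were 0.29 and 0.14. NRP-1 replicate 3 was higher than replicate 2 for 16 members and lower for 16. ACAT2, EBP and NR1H3 were higher in replicate 3, by 0.54, 0.61 and 0.64 on the log2 scale. FDFT1, INSIG2 and MYLIP were lower in replicate 3, with log2 differences of -0.55, -0.74 and -0.52. Each of the 12 genes that rose did so whichever NRP-1 library was set against the controls, with log2 fold changes between 0.79 and 2.22 when any 1 library was left out.

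**Figure D3:**
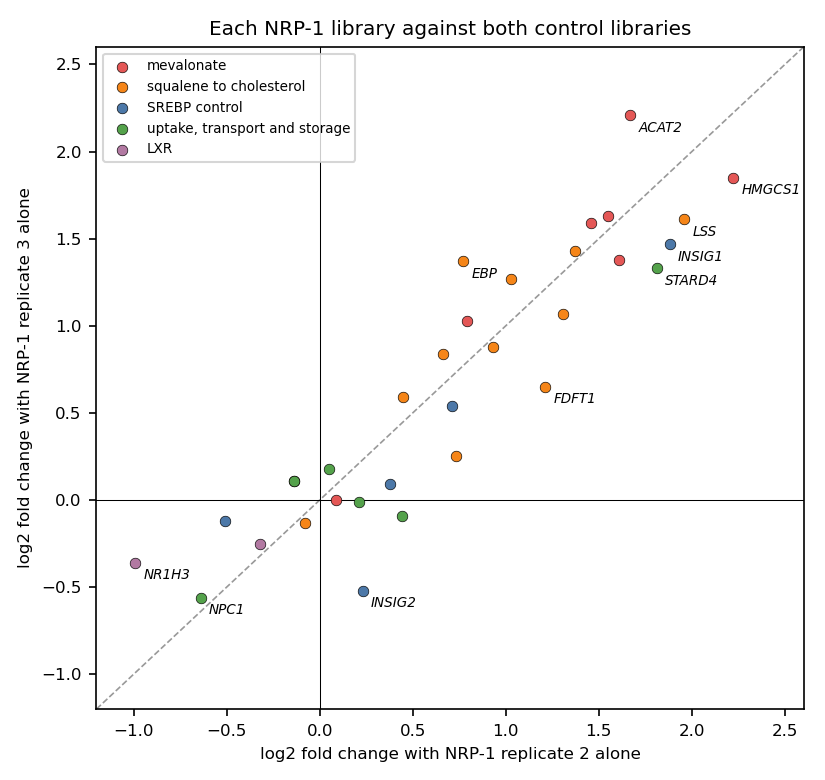
Log2 fold change of the 32 genes against both controls with NRP-1 replicate 2 alone (horizontal) and replicate 3 alone (vertical), the dashed line marking equality. The estimates share the same control libraries. ACAT2 lies at 1.67 and 2.21, HMGCS1 at 2.22 and 1.85, and INSIG2 changes sign between 0.23 and -0.52.

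The adjusted p-values of the 12 genes lay between 0.031 and 0.0489, close to the threshold. None of the 12 passed without the filter on low counts (adjusted p 0.106 to 0.113 by edgeR), with limma on log2(FPKM + 1) (0.0729 to 0.0846), or when either control library was left out, where edgeR called 0 genes of any kind. At an unadjusted p under 0.05 the same fits held 19 members among 3297 genes without the filter and 19 among 3076 with limma. Without control replicate 1 they held 14 members among 782 genes, and without control replicate 2, 16 among 1181.

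Neighbouring genes were described with lists drawn up by function. Of 19 genes that process SREBP or sense sterol in the endoplasmic reticulum, 0 rose and 1 fell. That gene was RNF145, a sterol-responsive ubiquitin ligase, at 142 and 145 CPM in the controls and 62.4 and 53.9 CPM in the NRP-1 libraries (log2 fold change -1.30, SE 0.13, adjusted p = 0.0358 by edgeR). HSP90B1, an endoplasmic reticulum chaperone, was at 1430 and 1470 CPM against 842 and 517 CPM, a log2 fold change of -1.09 with an adjusted p of 0.0789 by edgeR. The list median was -0.15. At an unadjusted p under 0.05 by edgeR, 1 gene of the list was higher and 4 lower. Among all tested genes 22.9% passed that cut in either direction, and 0.413% rose and 0.678% fell after adjustment.

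Of 21 genes of the non-sterol isoprenoid branch, which carries farnesyl and geranylgeranyl units to dolichol, ubiquinone and proteins, 0 rose and 0 fell by edgeR or by DESeq2, 5 were higher and 2 lower at an unadjusted p under 0.05 (22.9% of all tested genes in either direction), and the median was 0.04. FNTB, the farnesyltransferase beta subunit, was at 3.33 and 7.54 CPM in the controls and 14.9 and 12.9 CPM in the NRP-1 libraries (log2 fold change 1.35, adjusted p = 0.12 by edgeR), and leaving out 1 library gave 0.88 to 2.06. PDSS1, which builds the ubiquinone tail, was at 5.42 and 6.08 against 8.23 and 17.3 CPM (1.15, adjusted p = 0.164 by edgeR), and leaving out 1 library gave 0.52 to 1.57. Sterol transport, with 27 of 30 genes tested, had 1 gene that rose, 0 that fell and a median of -0.13. At an unadjusted p under 0.05 by edgeR, 5 of its genes were higher and 9 lower. In this list 6 genes lay above the controls in both NRP-1 libraries and 12 below, where 27.9% and 28.3% of all tested genes did. The gene that passed the adjusted test was LRP8, a lipoprotein receptor family member. It was at 24.9 and 27.1 CPM in the controls and 66.3 and 68.1 CPM in the NRP-1 libraries (log2 fold change 1.37, SE 0.14, adjusted p = 0.0358 by edgeR). OSBPL6, an oxysterol-binding protein relative, had few reads, 35 and 21 in the controls and 8 and 12 in the NRP-1 libraries. Its log2 fold change was -1.53 with an adjusted p of 0.137 by edgeR, and leaving out 1 library gave -1.86 to -1.11.

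Fatty acid enzymes under SREBP control were the list nearest to the members, with 3 of 12 rising, 0 falling and a median of 0.84. The background was 0.413% of all tested genes rising and 0.678% falling. At an unadjusted p under 0.05 by edgeR, 8 genes of this list were higher and 1 lower (22.9% of all tested genes in either direction). ACLY, which supplies cytosolic acetyl-CoA to both pathways, was at 244 and 260 CPM in the controls and 466 and 467 CPM in the NRP-1 libraries (log2 fold change 0.89, adjusted p = 0.0442 by edgeR). FASN, fatty acid synthase, changed by 0.99 (adjusted p = 0.0442 by edgeR), and FADS2, a fatty acid desaturase, 1.21 (adjusted p = 0.0472 by edgeR). SCD, the stearoyl-CoA desaturase, was at 888 and 978 CPM against 3490 and 2080 CPM, with a log2 fold change of 1.58 and an adjusted p of 0.0557 by edgeR. In the last list, paralogs of the members that act elsewhere and oxysterol enzymes, 7 of 12 genes were tested, 0 passed in either direction by edgeR, at an unadjusted p under 0.05 or by DESeq2, and the median was -0.29. CYP27A1, a sterol 27-hydroxylase, had 19 and 13 reads in the controls and 9 and 4 in the NRP-1 libraries (-1.34 on the log2 scale, adjusted p = 0.227 by edgeR), and leaving out 1 library gave -2.04 to -0.88.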

How the data were processed

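RNA-seq was carried out on 2 control and 2 NRP-1 libraries. Per the labels, poly(A) RNA was enriched and random-primed. The submitters' processing notes name bcl2fastq 2.16, HISAT2 2.0.1, Bowtie2 2.2.5 and RSEM, and both GRCh38 and hg19 with no role, so no coordinates are tied to the counts, and those of the promoter stretches are from the RefSeq table of GRCh38.p14. The authors deposited RSEM expected counts and FPKM per gene and library. A deposited table of the authors' own fold changes and p-values was not used. A gene absent from a library's file was set to 0 reads. NCBI Gene IDs were matched to symbols for 18762 of 18882 genes.

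After rounding, the expected counts were tested in edgeR 4.0.16 (filterByExpr, TMM, glmQLFit, glmQLFTest, group only), with Benjamini-Hochberg adjustment over 14298 genes and a threshold of 0.05. The SE is the absolute log2 fold change divided by the square root of F. Alternatives were DESeq2 1.42.0, edgeR without TMM or without the filter, limma 3.58.1 on log2(FPKM + 1) or log2(FPKM + 0.1) for genes averaging 0.5 FPKM or more and on log2(FPKM + 1) without that filter, and leaving out each library. A fold change on the log2(FPKM + pseudocount) scale understates changes of low genes. The scripts were tested on simulated counts that had the same spread in both groups. That test does not cover the unequal spread of the control and NRP-1 libraries. An exact permutation test of 2 against 2 libraries cannot give a p below 0.33.

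The members, lists and motifs were chosen with earlier results of these data known. All 32 members are named. Every library is given for members with an adjusted p under 0.05 or an absolute log2 fold change of 0.5 or more, and for further members where a comparison needed it, the latter chosen after their values were seen. From the lists, genes with an adjusted p under 0.05 and the 2 with the largest separated change per list are named, apart from an item that is not reported here.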

Additional observations from a re-analysis of the deposited data

How the results depend on the processing

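No paired analysis was possible because the groups share only replicate number 2. The biological coefficient of variation was 0.064 between the controls and 0.225 between the NRP-1 libraries, and with 2 libraries per group the estimate of the spread limits every call. Leaving out a control library left edgeR with the spread of the NRP-1 libraries alone. Leaving out an NRP-1 library made the lone one be treated as varying like the controls. The group balance changed as well in these fits, and what drove their counts of genes called was not tested. The members' median log2 fold change ran from 0.62 to 0.74 over the same fits. The 12 genes kept a positive log2 fold change, 0.79 to 2.22, in each.

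The count of members that rose was 0 without the low-count filter, 0 with limma on log2(FPKM + 1), 0 with limma on log2(FPKM + 0.1), 0 with limma without a filter, and 0 to 21 when 1 library was left out (0 without either control library, and 18 and 21 without NRP-1 replicate 2 and 3). The count that fell was 1 (NPC1) with DESeq2 and 0 to 3 when 1 library was left out. DESeq2 called 401 genes higher and 552 lower among those that passed the edgeR filter. It had first been run on all genes with reads, which called 375 and 518, with the same counts of 16 and 1 for the members. The run on the filtered genes, whose shares are given in the results above, was made later, after seeing the data. Among all genes, against 59 higher and 97 lower by edgeR, the counts were 0 and 0 without the filter, 3 and 4 with limma on log2(FPKM + 1), 1 and 2 with limma on log2(FPKM + 0.1), 0 and 0 with limma without a filter, and 0 to 2718 higher and 0 to 2696 lower when 1 library was left out. The cause of these differences was not tested.

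In the SREBP processing list, the count that fell was 2 with DESeq2 under either gene set, 0 without the filter and 0 in each limma fit, and 0 to 8 when 1 library was left out, with 0 to 3 rising. Its genes lying above the controls numbered 4, in place of 2, on CPM with library sizes and on FPKM. In the isoprenoid list, leaving out 1 library gave 0 to 7 rising and 0 to 3 falling. In the transport list, 0 rose without the filter and in each limma fit, 1 fell with DESeq2 under either gene set, and leaving out 1 library gave 0 to 5 rising, 0 to 10 falling and a median of -0.40 to -0.02. Of the fatty acid enzymes, 8 rose with DESeq2 under either gene set, 0 without the filter and in each limma fit, and 0 to 9 when 1 library was left out, with 0 to 1 falling. In the paralog list, leaving out 1 library gave 0 to 1 rising and 0 to 2 falling.

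Signs turned only for 5 members near 0. PMVK was at 0.03 without TMM, 0.04 in each limma fit, and between -0.18 and 0.20 when 1 library was left out. SCARB1 was at 0.03 without TMM, 0.02 in each limma fit, and between -0.14 and 0.11 when 1 library was left out. Leaving out 1 library put INSIG2 between -0.52 and 0.23, NPC2 between -0.01 and 0.21 and MYLIP between -0.09 and 0.44.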
